A study of Mus musculus with 22 samples.

Results

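The keratin genes were described across 8 groups of mouse cells. They were taken as every symbol made of Krt and digits alone with at least 1 count over all libraries. That left 49 of 50 matching symbols, out of 32544 symbols in all, because Krt86 had a total of 0. Symbols that end in a letter, such as Krt6a, do not match. The libraries were 22 bulk RNA sequencing libraries in 2 experiments. In the primary tumor experiment, alveolar macrophages co-cultured with primary tumor (PT) cells stood against macrophages alone, and PT cells co-cultured with macrophages stood against PT cells alone (3 libraries each). In the early lesion experiment, macrophages with early lesion (EL) cells stood against macrophages alone (2 libraries each), and EL cells with macrophages against EL cells alone (3 libraries each). PT and EL cells are primary mammary epithelial cells of MMTV-HER2 mice, in which a mammary tumor virus promoter drives the HER2 oncogene mainly in the mammary epithelium. The macrophages came from the lungs of wildtype FVB mice. All groups were kept for 7 days on gelled Matrigel, a basement membrane extract, in medium with horse serum, hydrocortisone, insulin and EGF. Before RNA extraction the cells of a co-culture were separated by a sort whose gate the labels do not state. The labels give no age of the animals and do not say whether animals were pooled.

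Keratins are the intermediate filament proteins of epithelial cells. A filament is built from pairs of an acidic type I and a basic type II keratin, so the genes are used in pairs, and the pair in use marks the kind of epithelium. In the mammary gland, Krt8 and Krt18, with Krt19 and Krt7, mark the luminal cells that line the ducts and make milk, and Krt5, Krt14 and Krt17 mark the basal, contractile myoepithelial cells around them. Other keratins belong to the upper layers of the epidermis, to hair follicles or to wounded skin, and Krt79 is known in mouse skin from the canal of the hair follicle.

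Of the 49 keratin genes, 26 were type I and 23 type II. In the GENCODE M21 annotation of mm10, 25 lay at chr11:99232761-100269871. The other 24 lay at chr15:101347444-102032027, where the type I gene Krt18 stands beside its partner Krt8. Krt79 (type II, minus strand, chr15:101929332-101940324) and Krt78 (type II, minus strand, chr15:101946001-101954287) are neighbours. Krt5 (type II, minus strand, chr15:101707070-101712898) lies further along the same strand. The 250 bases before the annotated start of these 3 genes are shown from RefSeq (GRCm38.p6), since Krt79 and Krt78 were higher in macrophages than in EL cells and Krt5 was far lower. Capitals mark a match to the motif ATAAAAG, read on both strands, and each window ends at the base before the RefSeq start.
Krt79, chr15:101940325-101940574, minus strand: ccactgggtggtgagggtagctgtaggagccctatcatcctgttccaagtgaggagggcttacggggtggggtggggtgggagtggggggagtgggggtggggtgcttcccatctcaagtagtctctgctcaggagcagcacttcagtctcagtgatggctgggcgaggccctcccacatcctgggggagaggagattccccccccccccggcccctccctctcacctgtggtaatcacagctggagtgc
Krt78, chr15:101954288-101954537, minus strand: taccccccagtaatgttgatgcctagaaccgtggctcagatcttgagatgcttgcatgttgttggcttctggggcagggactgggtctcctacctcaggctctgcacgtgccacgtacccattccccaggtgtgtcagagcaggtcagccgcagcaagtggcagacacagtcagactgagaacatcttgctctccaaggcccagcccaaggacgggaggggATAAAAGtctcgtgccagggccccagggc
Krt5, chr15:101712906-101713155, minus strand: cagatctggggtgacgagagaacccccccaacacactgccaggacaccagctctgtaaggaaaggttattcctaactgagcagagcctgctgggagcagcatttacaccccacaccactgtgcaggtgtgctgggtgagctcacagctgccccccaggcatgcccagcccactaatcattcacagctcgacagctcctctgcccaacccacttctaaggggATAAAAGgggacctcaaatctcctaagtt

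The Krt78 and Krt5 windows each held ATAAAAG at the same distance before the start, and the Krt79 window held no match to any of the 5 motifs searched, which were this one, the motif TATAAA, the motif GAGGAA, the motif GGGCGG and the motif TGANTCA. RefSeq gave 36 windows for 35 of the keratin genes. TATAAA was in 16 of these 36 windows (44.4%), against 12.4% of 32851 windows of all genes. ATAAAAG, a motif chosen after reading the windows and overlapping TATAAA in part, was in 12 (33.3%), against 4.83% of all windows. GAGGAA was in 19.4% of the keratin windows and 23.3% of all, GGGCGG in 5.56 and 32.7%, and TGANTCA in 5.56 and 6.75%. These are counts of letters in the windows, and no match shows that a factor binds there.

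Libraries held 19.7 to 43.7 M counts. The share of mitochondrially encoded counts was 2.86 to 3.53% in 16 libraries. In the other 6, the macrophages of the primary tumor experiment, it was 74.9 to 78.6% with PT cells and 65.7 to 72.7% alone. Grip2, a synaptic scaffold gene, took 12.9% of the counts of 1 of them, mono-culture replicate 1, and 1.85 to 2.60% in the rest. It took 1.08 to 7.38% in the PT cell libraries, against 0.0165 to 0.0739% in the libraries of the early lesion experiment. The keratin share of all counts was 0.00204 to 0.00784% in the 6 macrophage libraries of the primary tumor experiment and 0.0410 to 0.0490% in the other 4 macrophage libraries. Alveolar macrophage markers other than Krt79 (10 genes, led by the chitinase-like gene Chil3) summed to 5975 to 24378 CPM in the macrophage libraries and to 83.9 to 284 CPM in the mammary libraries. In PT cells alone, 6 of these 10 genes, among them Marco and Itgax, were at 0. Only 1, Fabp1, was at 0 in PT cells with macrophages and in EL cells alone, and 0 were in EL cells with macrophages. In the mammary libraries the keratin share was 0.506 to 0.798%. Of the 49 genes, 36 had at least 10 counts in all, 20 reached a mean of 1 CPM in some group, and 23 are named below. The other 26 had group means of at most 0.650 CPM, and 3 of them had a total of 1 count.

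Levels are given as CPM, counts scaled to library size and normalized over the 22 libraries together by the trimmed mean of M values (TMM), as mean ± SD. Differences are log2 fold changes ± standard error from edgeR's quasi-likelihood test, fitted to all genes of the groups compared, with Benjamini-Hochberg adjusted p over all genes tested and a threshold of 0.05. In bulk libraries, fewer cells of a type and less RNA per cell cannot be told apart. The labels call the replicates biological without naming animals, so the p-values measure the spread between these libraries.

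**Figure D1:**
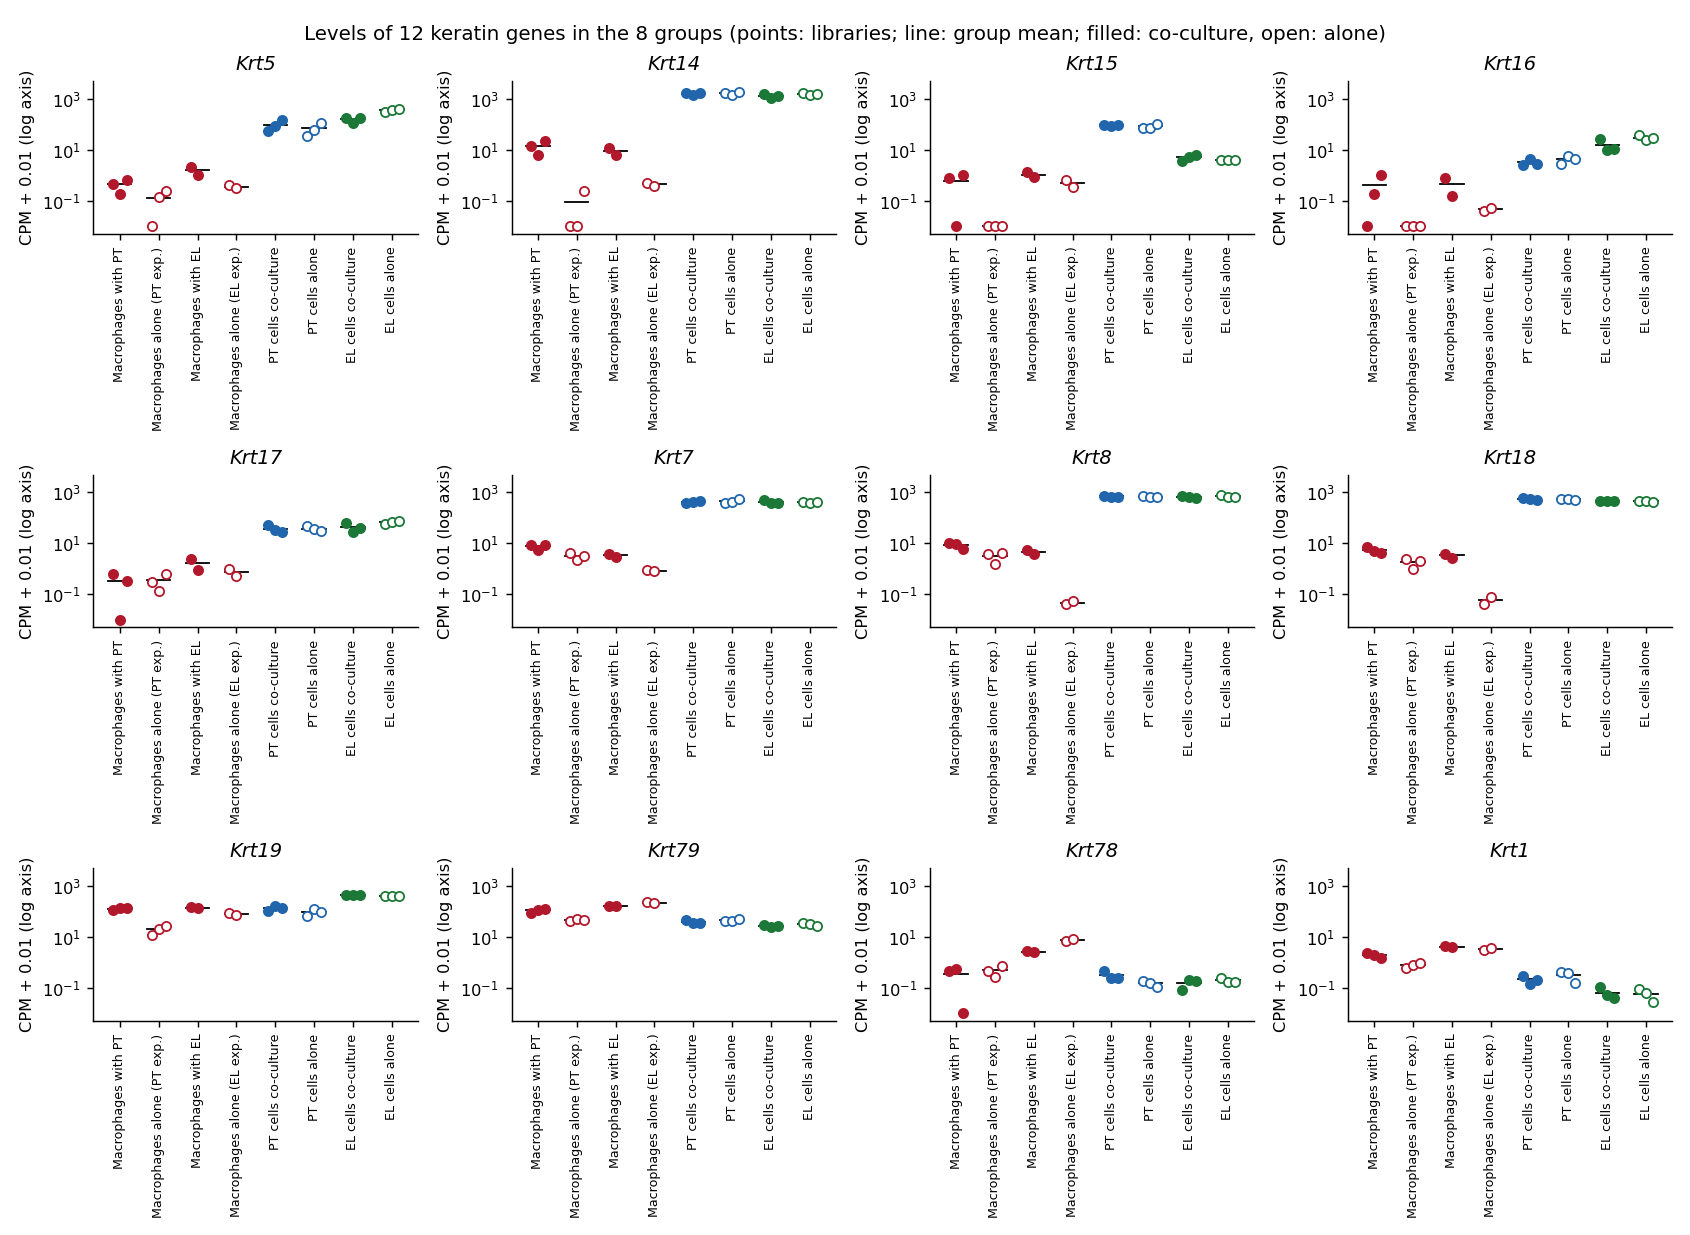
Levels of 12 keratin genes (CPM + 0.01, log axis) in each library of the 8 groups, with filled points for co-culture, open points for cells alone and a line at the group mean. Krt14, Krt8, Krt18 and Krt7 lie at 367 CPM or above in every mammary library and at 23.0 CPM or below in every macrophage library, Krt79 lies between 24.4 and 231 CPM in all 22, and Krt1 is at 0.600 CPM or above in every macrophage library and at 0.414 CPM or below in every mammary library.

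Krt79 was the leading keratin of macrophages cultured alone. Per kilobase of transcript it made up 55.2% of all keratin signal in the macrophages alone of the primary tumor experiment and 66.0% in those of the early lesion experiment, and Krt19 made up 30.9 and 30.3%. Krt79 stood at 41.1, 49.3 and 47.1 CPM in macrophages alone, against 42.3, 39.9 and 48.5 CPM in PT cells alone. These ranges overlapped, and the difference of 0.22 ± 0.10 did not pass (edgeR adjusted p = 0.0739), though without PT cells alone replicate 3 it did (0.29). In the early lesion experiment Krt79 stood at 231 and 209.7 CPM in macrophages alone, against 34.9, 31.4 and 27.5 CPM in EL cells alone. Every macrophage library was above every EL library there (2.81 ± 0.10, edgeR adjusted p = 1.84e-08). Krt79 shared no 50-base stretch with another gene and overlapped no other exon.

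In the early lesion experiment, 22 of 23 keratins tested differed between macrophages and EL cells, each cultured alone, where 77.8% of all 15696 genes tested did. 4 were higher in macrophages and 18 lower, and 37% of all genes were higher and 40.7% lower. Keratins with no count in macrophages alone, such as Krt71, entered the test only through EL cells. With no filter on low counts, 5 passed higher and 20 lower. Beside Krt79, the higher ones with the filter were Krt78, Krt1 and Krt222. Krt78, a keratin of stratified epithelia, was at 6.63 and 7.86 CPM in macrophages, against 0.239, 0.150 and 0.158 CPM in EL cells (5.30 ± 0.23). Krt1, the type II keratin of the upper epidermis, was at 3.06 and 3.76 CPM in macrophages, against 0.0491 ± 0.0311 CPM in EL cells (SD, n = 3, 6.02 ± 0.38). These genes were low in absolute terms, and the macrophages held no matching Krt1 partner at a higher level, since Krt10 was at 0.589 ± 0.0695 CPM in macrophages and 3.23 ± 0.212 CPM in EL cells (-2.45 ± 0.22). Krt222, a type I member, was at 0.870 and 0.969 CPM in macrophages, against 0.0319, 0.0751 and 0.0703 CPM in EL cells (3.88 ± 0.44).

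Krt19, a type I keratin of luminal cells, had counts in every macrophage library, at 82.7 and 69.3 CPM in macrophages alone, against 415, 402 and 394 CPM in EL cells alone (-2.42 ± 0.08). Krt15, a basal and hair follicle keratin, was also lower in macrophages (-3.09 ± 0.25). The hair follicle keratin Krt71 had no count in macrophages alone of that experiment, against 401 counts in EL cells, so it was at least 52.7-fold lower (floor of 3 counts over the group). In the primary tumor experiment 18 of 19 keratins tested were lower in macrophages than in PT cells, where 78.9% of all genes differed (36.7% higher, 42.3% lower). Some of these, such as Krt15 and Krt71, had no count in macrophages alone and entered the test only through PT cells, so their direction was fixed by the filter. With no filter on low counts, 3 passed higher and 21 lower. Without mitochondrially encoded genes and Grip2, 2 passed higher and 17 lower. Krt19 was at 11.8, 20.2 and 25.8 CPM in macrophages, against 64.8, 121 and 94.8 CPM in PT cells (-2.12 ± 0.29). Krt222 was not tested there, with 24 counts in macrophages and 1 in PT cells, a ratio of 127 (95% interval 20.8 to 5236, counting error only).

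Markers of lung epithelium, another possible source of keratin counts in macrophages, were read too. The 11 markers summed to 4.80 to 7.52 CPM in the macrophages alone of the primary tumor experiment, with 5 at 0. In those of the early lesion experiment they summed to 11.21 to 12.004 CPM, with 3 at 0. The surfactant genes Sftpc and Sftpa1 were at 0 in both. The same list summed to 493 to 717 CPM in PT cells alone and 152 to 179 CPM in EL cells alone. Of 6 tested, 2 were higher and 4 lower in macrophages than in EL cells (37 and 40.7% of all genes). Against PT cells, 1 of 3 was higher and 2 lower (36.7 and 42.3%). The part of lung epithelium in the keratin counts was not tested. The 10 pan-epithelial markers other than keratins (Epcam, claudins and others) summed to 0.757 to 2.27 and 5.46 to 6.24 CPM, against 1218 to 1329.6 CPM in PT cells and 1120.3 to 1167 CPM in EL cells alone.

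The macrophage co-cultures addressed how macrophages grown with mammary cells differ from macrophages alone. With EL cells, Krt79 fell: it was at 166 and 163 CPM in macrophages with EL cells, against 231 and 209.7 CPM in macrophages alone. The groups did not overlap, and the change was -0.46 ± 0.07 (edgeR adjusted p = 0.000838). With PT cells, Krt79 rose: it was at 87.7, 113 and 126 CPM in macrophages with PT cells, against 41.1, 49.3 and 47.1 CPM in macrophages alone (1.20 ± 0.13, edgeR adjusted p = 1.74e-05). All 3 co-cultured libraries lay above all 3 alone. Krt79 thus moved in opposite directions in the 2 experiments, and the PT response minus the EL response was 1.64 ± 0.18 (edgeR adjusted p = 7.80e-05). In both experiments Krt79 in co-cultured macrophages exceeded its level in the mammary cells of the same co-culture, 109 against 37.3 CPM with PT cells and 165 against 26.02 CPM with EL cells. The macrophages alone also differed in level between the experiments, 45.8 ± 4.26 CPM in the primary tumor and 221 ± 15.3 CPM in the early lesion experiment, and partner and experiment cannot be told apart. The other 10 alveolar macrophage markers summed to 9897 to 12214 CPM in macrophages with PT cells, against 5975 to 7405 CPM alone, and to 24342 to 24378 CPM with EL cells, against 21834 to 22641 CPM alone. Chil3 made up most of these sums. Of the 11 alveolar markers with Krt79, 8 rose and 2 fell with PT cells, where 15.8% and 14.8% of all genes tested did. With EL cells 3 rose and 3 fell, where 9.11% and 9.19% of all genes did. Krt79 is itself counted, among the 8 that rose and the 3 that fell. The sums of the 10 pan-macrophage markers went the other way from the alveolar sums. They were at 6216 to 7581 CPM with PT cells, against 8387 to 11154 CPM alone, and at 17761 to 18054 CPM with EL cells, against 23372 to 23928 CPM alone. Of these 10, 2 rose and 2 fell with PT cells, and 3 rose and 2 fell with EL cells, beside the same shares of all genes. The part of either list in the Krt79 values was not tested.

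**Figure D2:**
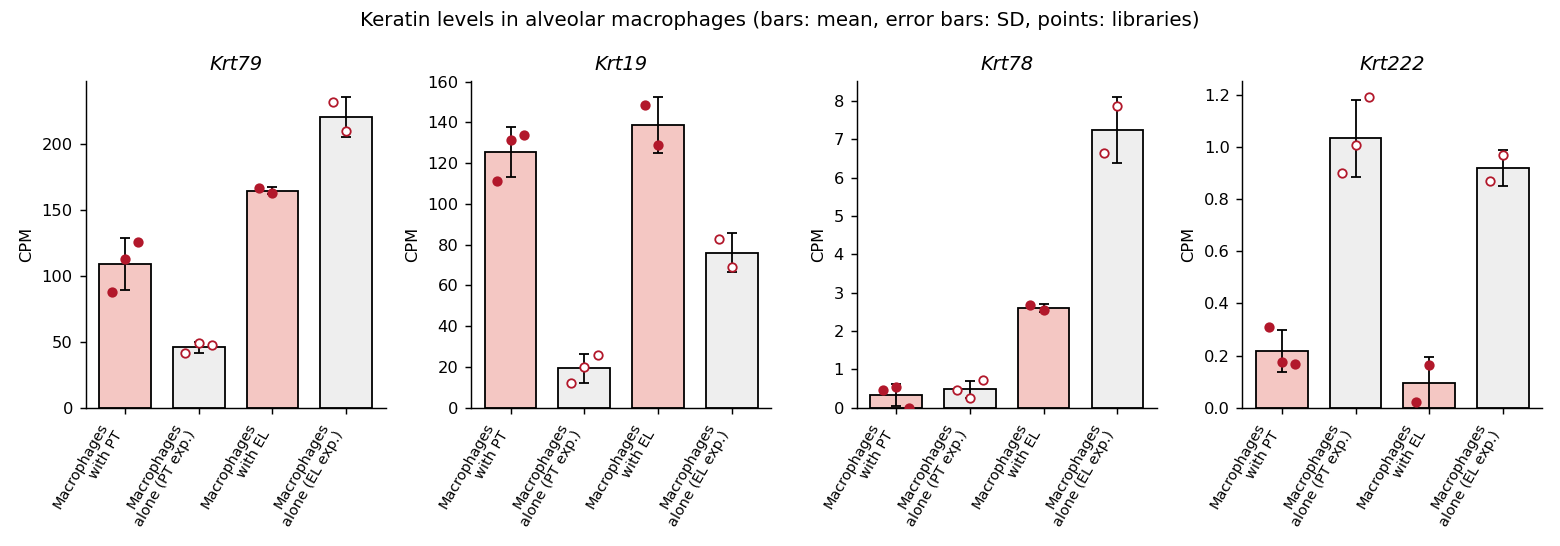
Levels (CPM) of Krt79, Krt19, Krt78 and Krt222 in the 4 macrophage groups, as bars at the mean with SD and a point per library. Krt79 is 109 against 45.8 CPM with PT cells and 165 against 221 CPM with EL cells, while Krt19 is higher in co-culture in both experiments and Krt222 lower.

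Krt19 rose in both. It was at 111, 132 and 134 CPM in macrophages with PT cells, against 11.8, 20.2 and 25.8 CPM alone (2.65 ± 0.21, edgeR adjusted p = 1.16e-05). It was at 149 and 129 CPM with EL cells, against 82.7 and 69.3 CPM alone (0.84 ± 0.10, edgeR adjusted p = 0.000532). Neither pair of groups overlapped, and the rise in the primary tumor experiment was larger (difference 1.79 ± 0.28, edgeR adjusted p = 0.00237). The co-culture means were 126 CPM with PT cells and 139 CPM with EL cells. The macrophages alone differed more, at 19.3 CPM in the primary tumor and 76.0 CPM in the early lesion experiment. Partner and experiment cannot be told apart here either. Krt19 shared no 50-base stretch with another gene.

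Krt78 and Krt222 fell with EL cells. Krt78 was at 2.67 and 2.53 CPM with EL cells, against 6.63 and 7.86 CPM alone (-1.51 ± 0.15, edgeR adjusted p = 4.28e-05). Krt222 had 1 and 7 counts with EL cells, against 29 and 44 counts alone (-3.33 ± 0.63, edgeR adjusted p = 0.00344). Its estimate depends on those few counts, at -2.49 without co-culture replicate 1 and -5.26 without co-culture replicate 2. With PT cells Krt222 had 2, 1 and 1 counts, against 6, 8 and 10 counts alone, and Krt78 had 3, 3 and 0 counts, against 3, 2 and 6 alone. Both were too low to be tested there. Krt1 was at 4.15 and 4.06 CPM with EL cells, against 3.06 and 3.76 CPM alone (0.23 ± 0.17, edgeR adjusted p = 0.415), which did not pass. With PT cells it was at 2.32, 1.93 and 1.497 CPM, against 0.600, 0.757 and 0.955 CPM alone, and it was not tested.

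Krt14, Krt8, Krt18 and Krt7 of mammary epithelium also rose in macrophages of both co-cultures, and Krt5 rose with EL cells. Of 14 keratins with counts high enough to be tested with EL cells, 9 passed, 6 higher and 3 lower, where 18.3% of all 14032 genes did (9.11% higher, 9.19% lower). With PT cells 6 of 6 tested passed, all higher, where 30.6% of 11121 genes did (15.8% higher, 14.8% lower). The filter keeps a keratin near 0 in macrophages alone, such as Krt14, only where its co-culture counts are high. The direction of such genes was fixed in part by the filter, so these counts are not a result about keratins as a set. With no filter on low counts, 9 passed higher and 3 lower with EL cells, and 7 higher and 0 lower with PT cells. Krt14, the basal type I keratin, was at 14.5, 6.48 and 23.0 CPM with PT cells, against 0, 0 and 0.239 CPM alone. That is 269 against 2 counts, a ratio of 170 with a 95% interval of 46.6 to 1409 that covers counting error only (edgeR adjusted p = 0.000104). With EL cells it was at 11.4 and 6.08 CPM, against 0.480 and 0.374 CPM alone (4.34 ± 0.43, edgeR adjusted p = 0.00141).

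Krt8, the luminal type II keratin, was at 5.52 and 3.71 CPM with EL cells, against 0.0300 and 0.0440 CPM alone. That is 412 against 3 counts, a ratio of 122 (95% interval 41.5 to 594, counting error only, edgeR adjusted p = 1.55e-06). Its partner Krt18 was at 3.93 and 2.72 CPM with EL cells, against 0.0300 and 0.0660 CPM alone (5.93 ± 0.45). Krt7, a keratin of ducts, rose by 1.97 ± 0.26 and Krt5, the basal type II keratin, by 2.16 ± 0.44. Krt5 was at 2.15 and 1.03 CPM with EL cells, against 0.390 and 0.308 CPM alone. The Krt5 call was lost without co-culture replicate 1 (1.54). Krt15 (1.11 ± 0.43) and the wound keratin Krt17 (1.10 ± 0.50) did not pass, at edgeR adjusted p = 0.099 and 0.169. Both rest on single libraries. Without macrophages alone replicate 1 or co-culture replicate 2 they passed (1.56 and 1.39 for Krt15, 1.64 and 1.60 for Krt17). Without macrophages alone replicate 2 or co-culture replicate 1 they did not (0.703 and 0.735 for Krt15, 0.652 and 0.284 for Krt17). With PT cells Krt17 was not tested, at a mean of 0.317 CPM, against 0.341 CPM alone.

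With PT cells, Krt8 was at 10.3, 9.11 and 5.99 CPM, against 3.75, 1.51 and 4.30 CPM in macrophages alone (1.37 ± 0.35, edgeR adjusted p = 0.00984). Krt18 rose by 1.53 ± 0.38 and Krt7 by 1.24 ± 0.31, with no overlap between the groups for either. The Krt18 call was lost without co-culture replicate 1 (1.29). Krt5 was not tested there, with 8 against 3 counts, a ratio of 3.37 (95% interval 0.808 to 19.7, counting error only). Krt8 and Krt18 thus had counts in macrophages alone of the primary tumor experiment, at means of 3.19 and 1.81 CPM. They were nearly absent in those of the early lesion experiment, at 0.0370 and 0.0480 CPM. Krt8 shared 29.7% of its 50-base windows with other genes, Krt14 14.4%, Krt5 12.2%, Krt18 0.72% and Krt7 0.222%. The PT response minus the EL response was -5.32 ± 0.75 for Krt8 and -4.32 ± 0.72 for Krt18 (edgeR adjusted p = 0.000456 and 0.00158). Both estimates rest on the 3 Krt8 counts and the few Krt18 counts of macrophages alone in the early lesion experiment. In all, 4 of 13 keratins tested differed between the 2 macrophage responses, 2 in each direction, where 10.9% of genes did (5.7% higher, 5.25% lower). The differences for Krt14 (2.93 ± 1.58) and Krt7 (-0.74 ± 0.45) did not pass, although Krt14 did with the replicate number as a block (3.04, adjusted p = 0.0353) and with no filter on low counts (2.90, adjusted p = 0.0247). Same-numbered macrophage libraries had residual correlations of at most 0.00418. The Krt14 difference was 7.11 without macrophages alone replicate 3 of the primary tumor experiment, the library that held both counts of that group, and it did not pass there.

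The gain in macrophages (mean with mammary cells minus mean alone) was set beside the level in the mammary cells of the same co-culture. For Krt5, Krt7, Krt8, Krt14 and Krt18 it was 0.328 to 1.06% of the level in PT cells and 0.603 to 0.792% of the level in EL cells. Other mammary keratins at 10 CPM or more in the partner lay outside these ranges, apart from Krt15 with PT cells. With EL cells the gain was 2.67% for Krt16 (42 against 3 counts) and 2.01% for Krt17, and with PT cells it was 0.654% for Krt15 and -0.0646% for Krt17. For epithelial markers other than keratins it was 0.464 to 1.87% with PT cells (9 markers at 10 CPM or more in PT cells) and 0.545 to 1.31% with EL cells (10 markers). Krt5 and Krt17 with PT cells lay below this range, and Krt16 and Krt17 with EL cells above it. The tenth marker with PT cells, Cldn4, was at 7.46 CPM in PT cells and gained 9.52%. Epcam, a cell adhesion gene of epithelia, was at 4.77 CPM in macrophages with PT cells, against 0.124 CPM alone, and at 5.24 CPM with EL cells, against 0.771 CPM alone. The gain of Krt19 was 78.1% of its level in PT cells and 14.7% of that in EL cells. The gain of Krt79 with PT cells was 169% of its level there, and with EL cells Krt79 was lower by 56.0 CPM than alone. Of the 10 pan-epithelial markers, 3 of 3 tested rose with PT cells and 5 of 7 with EL cells, where 15.8% and 9.11% of all genes rose. Their sums were 11.7 to 18.1 CPM with PT cells, against 0.757 to 2.27 CPM alone, and 15.58 to 18.03 CPM with EL cells, against 5.46 to 6.24 CPM alone. The part of mammary RNA in these changes was not tested. The share of mitochondrially encoded counts also differed with PT cells, as given above, and its part was not tested.

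**Figure D3:**
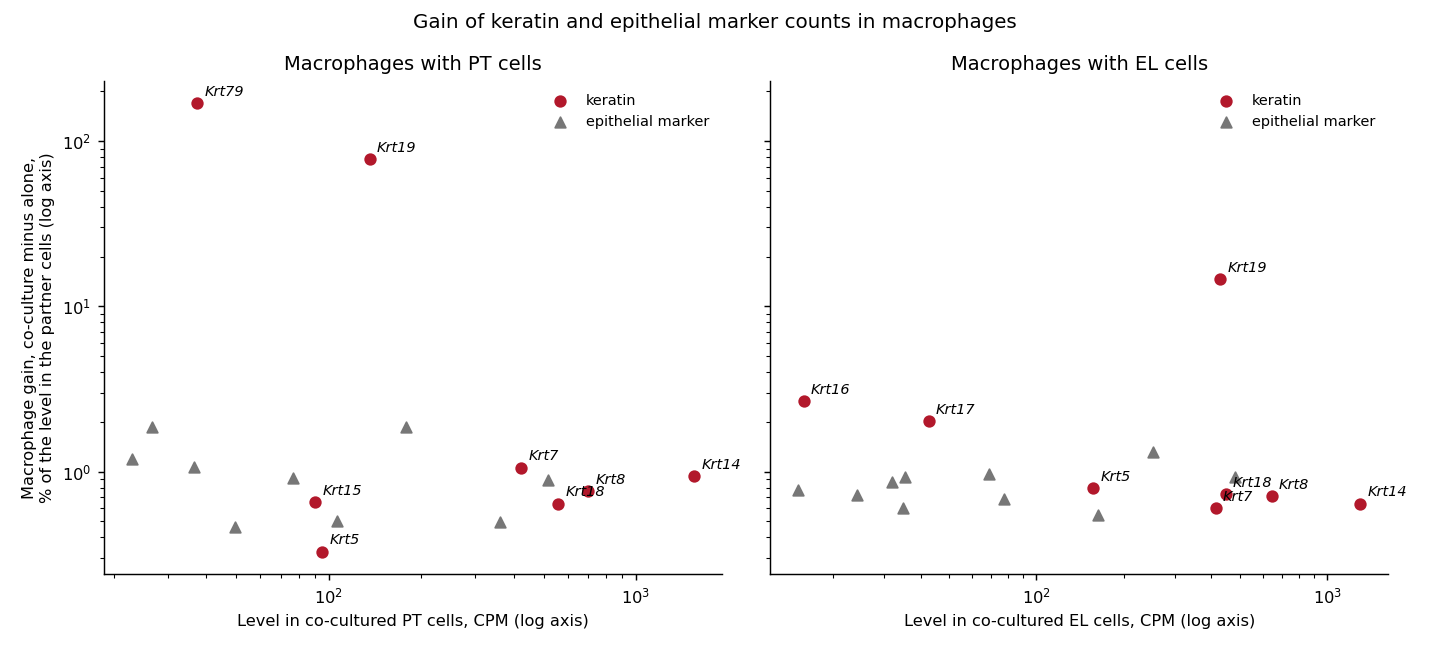
Gain in macrophages (mean CPM in co-culture minus mean alone, in % of the mean in the partner mammary cells, log axis) against the level in the partner cells (CPM, log axis), for keratins (circles) and epithelial markers (triangles) at 10 CPM or more in the partner with a gain above 0. Krt14, Krt8, Krt18 and Krt7 lie within the range of the markers in both panels, Krt5 lies below it with PT cells (0.328%), Krt16 and Krt17 lie above it with EL cells, and Krt19 lies at 78.1% with PT and 14.7% with EL cells and Krt79 at 169% with PT cells.

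In the mammary cells themselves, Krt14, Krt8, Krt18, Krt7 and Krt19 were the leading keratins per kilobase in all groups but EL cells alone, where Krt5 stood before Krt7. In CPM, Krt7 stood before Krt5 there, at 409 against 352 CPM. Per kilobase, Krt14 held 45.6% of keratin signal in PT cells with macrophages and 48.7% in PT cells alone, and 40.1% in EL cells with macrophages and 42.4% in EL cells alone. Krt8 and Krt18 held 14.1 to 19.5% each in the 4 groups. Basal and stress keratins together (Krt5, Krt14, Krt15, Krt16 and Krt17) held 51.6% ± 3.15 in PT cells with macrophages and 54.0% ± 3.00 in PT cells alone (SD, n = 3 each). In EL cells they held 45.6% ± 4.38 with macrophages and 52.6% ± 1.498 alone, with ranges of 41.1 to 49.8% and 51.2 to 54.2% that did not overlap. Simple epithelial keratins held nearly all the rest, 41.2 to 57.9% over the 12 libraries, and hair follicle keratins at most 0.288%. The cells therefore carried keratins of both mammary layers in 1 bulk sample, which does not say whether the same cells held both.

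The mammary co-cultures addressed how mammary cells grown with macrophages differ from those alone, first in EL cells. None of the 20 keratins tested passed (edgeR, 3 at unadjusted p under 0.05 and 1 with DESeq2), where 0.51% of all 14891 genes did (0.369% higher, 0.141% lower). Krt5 had the lowest p of them. It was at 178, 109 and 183 CPM with macrophages, against 296, 355 and 404 CPM alone. All 3 co-cultured libraries lay below all 3 alone, with means of 157 ± 41.1 and 352 ± 54.4 CPM, and the difference was -1.17 ± 0.23 (edgeR adjusted p = 0.124, with 0.0022 before adjustment). DESeq2 called it, at an adjusted p of 0.000443. Its type I partner Krt14 was at 1584, 1068 and 1249 CPM with macrophages, against 1754, 1454 and 1538 CPM alone, which overlapped (-0.28 ± 0.15, edgeR adjusted p = 0.433).

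The wound keratins Krt16 and Krt17 were at 27.1, 10.2 and 10.3 CPM and at 61.6, 27.8 and 38.8 CPM in EL cells with macrophages. In EL cells alone Krt16 was at 37.2, 23.3 and 30.1 CPM and Krt17 at 56.8, 67.9 and 75.9 CPM. Replicate 1 with macrophages was the highest of its group for both and overlapped the cells alone, and neither passed (-0.92 ± 0.44 and -0.64 ± 0.30). Without that library Krt14 (-0.45), Krt16 (-1.56) and Krt15 (0.51) passed, among 1612 genes called in all against 76 with it. Krt15 was at 3.74, 5.36 and 6.19 CPM with macrophages and 4.05, 4.03 and 4.06 CPM alone (0.33 ± 0.18). Krt79 was at 28.4, 24.4 and 25.3 CPM with macrophages, against 34.9, 31.4 and 27.5 CPM alone (-0.27 ± 0.10, edgeR adjusted p = 0.277). The luminal keratins were close between the groups, Krt8 at -0.10 ± 0.09 and Krt19 at 0.08 ± 0.04.

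Markers of other cells were read in the same libraries. The 9 fibroblast markers summed to 632 to 1917 CPM in EL cells with macrophages and 589 to 1148 CPM in EL cells alone, and 0 of 9 passed, with 9 of 9 estimates above 0. The 10 pan-macrophage markers summed to 157 to 253 CPM with macrophages and 112 to 159 CPM alone, with 0 of 8 called. The 10 basal markers other than keratins (Trp63, Acta2, Myh11 and others) summed to 293 to 298 CPM with macrophages and 275 to 304 CPM alone. Of the 13 basal markers with Krt5, Krt14 and Krt17, 1 rose and 0 fell, with 5 estimates above 0. No fibroblast or pan-macrophage marker was at 0 in either group. The 5 neutrophil markers summed to 38.2 to 59.9 CPM with macrophages and 17.7 to 32.3 CPM alone, with Ly6g at 0 in both and 0 of 3 called. The part of such cells in the keratin values was not tested.

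In PT cells none of the 21 keratins tested passed in the fit without pairing (edgeR, 2 at unadjusted p under 0.05 and 0 with DESeq2), where 1.67% of all 13506 genes did (0.659% higher, 1.01% lower). Libraries with the same replicate number deviated together in PT cells, so the fit with the number as a block is given beside it. With the block 6 of 21 keratins passed, 3 higher and 3 lower, where 21% of genes did (10.6% higher, 10.4% lower). Krt19 was at 107, 163 and 139 CPM with macrophages, against 64.8, 121 and 94.8 CPM alone, in the order of the replicate numbers. The groups overlapped, while each numbered pair was higher with macrophages, by 1.65, 1.35 and 1.46 times (0.55 ± 0.27 and edgeR adjusted p = 0.331 without the block, 0.57 and 1.48e-06 with it). Krt5 was at 55.2, 82.4 and 149 CPM with macrophages, against 34.8, 60.8 and 112 CPM alone. The spread between numbers exceeded that between cultures, and each pair was higher with macrophages by 1.59, 1.36 and 1.33 times (0.47 ± 0.58 and edgeR adjusted p = 0.707 without the block, 0.50 and 5.52e-06 with it). Without PT cells with macrophages replicate 3, the unpaired Krt5 value was -0.00657.

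Krt87, a type II keratin, was at 1.63, 2.42 and 2.98 CPM with macrophages, against 0.973, 1.07 and 2.23 CPM alone (0.72 ± 0.37 without the block, 0.75 and adjusted p = 0.0139 with it). It shared 36.9% of its 50-base windows with another gene, Gm49425, so its counts are uncertain. The hair follicle keratin Krt71 was at 5.62, 4.42 and 4.73 CPM with macrophages, against 9.78, 6.46 and 6.63 CPM alone. The groups did not overlap (-0.62 ± 0.19 and edgeR adjusted p = 0.126 without the block, -0.62 and 0.000725 with it). Krt80 was at 1.45, 2.71 and 2.98 CPM with macrophages, against 2.00, 3.74 and 5.87 CPM alone (-0.70 ± 0.44 without the block, -0.66 and adjusted p = 0.00662 with it). Krt42 was at 1.47, 1.55 and 1.15 CPM with macrophages, against 2.55, 2.50 and 1.62 CPM alone (-0.67 ± 0.24 without the block, -0.66 and adjusted p = 0.0209 with it). Krt14, Krt8, Krt18, Krt7, Krt15 and Krt79 did not pass in either fit. Their unpaired values were -0.09 ± 0.10 for Krt14, 0.06 ± 0.07 for Krt8, 0.08 ± 0.08 for Krt18, -0.07 ± 0.11 for Krt7, 0.13 ± 0.12 for Krt15 and -0.22 ± 0.11 for Krt79.

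**Figure D4:**
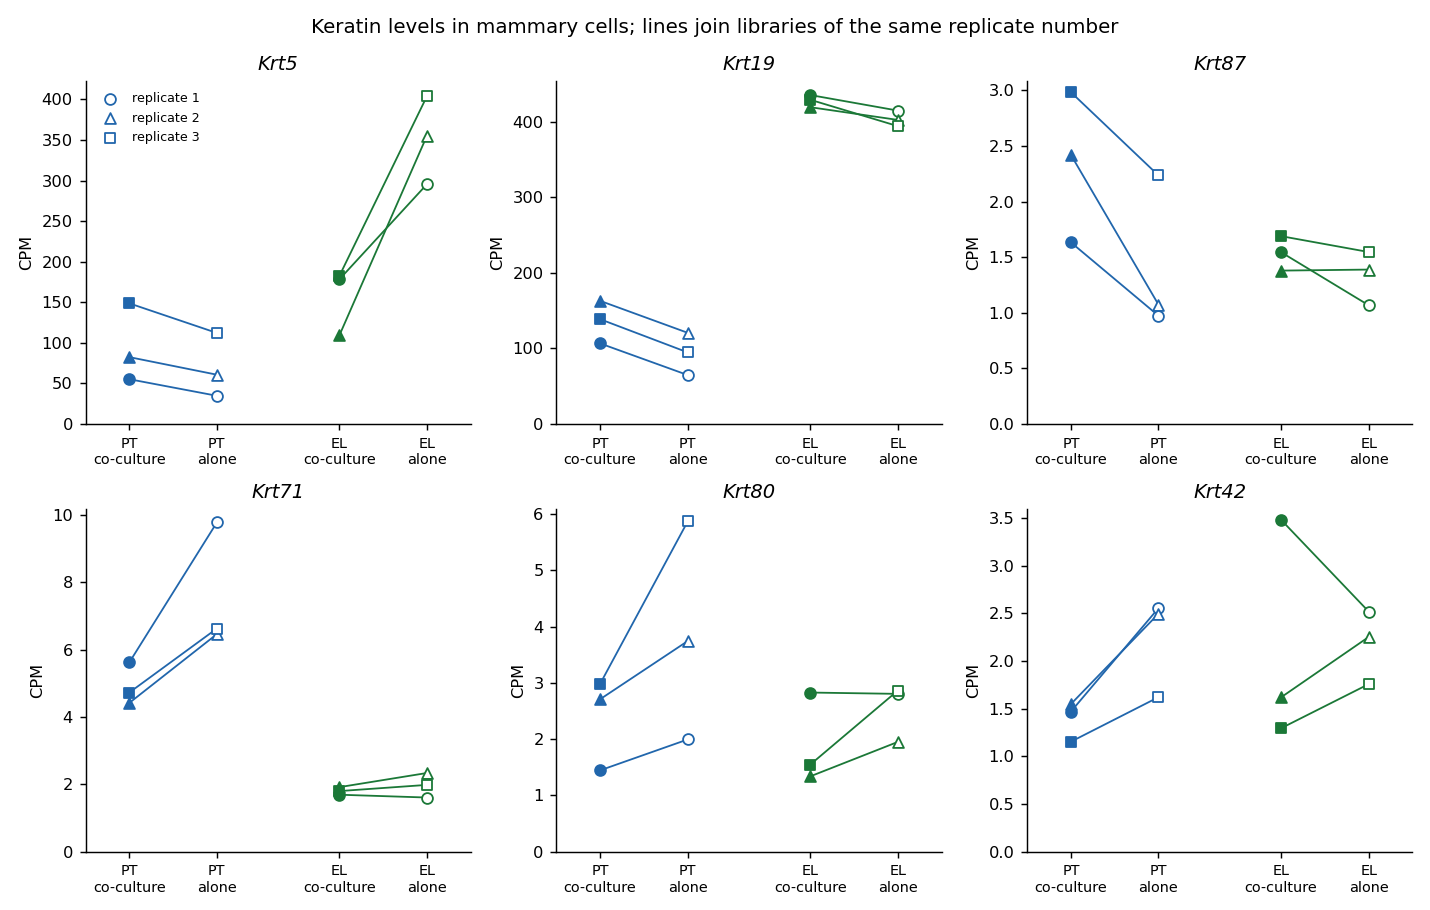
Levels (CPM) of Krt5, Krt19, Krt87, Krt71, Krt80 and Krt42 in PT cells (blue) and EL cells (green), with macrophages (filled) and alone (open), with a line joining libraries of the same replicate number. In PT cells each of the 3 lines runs the same way for each of the 6 genes, and in EL cells Krt5 is lower with macrophages for all 3 numbers, at 157 against 352 CPM in the mean. The 6 genes are those called in PT cells with the replicate block, so the direction within pairs went into their choice. The pairs of Krt14, Krt8 and Krt18, not called in either fit and not drawn, also ran the same way in PT cells.

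In PT cells the 9 fibroblast markers summed to 243 to 264 CPM with macrophages and 189 to 335 CPM alone, and the 10 pan-macrophage markers to 235 to 423 CPM with macrophages and 168 to 323 CPM alone, where 1 of 6 tested rose. Luminal markers other than keratins (10 genes) summed to 5405 to 6154 CPM with macrophages and 4877 to 6074 CPM alone. Of the 14 luminal markers with Krt7, Krt8, Krt18 and Krt19, 1 rose and 2 fell. The part of such cells in the Krt19 and Krt5 values was not tested. Krt5 was lower with macrophages in EL cells and higher in each pair of PT cells. The difference between the responses, PT minus EL, was 1.64 ± 0.65 and did not pass without the block (edgeR adjusted p = 0.298), and was 1.70 with it (adjusted p = 0.0323). For Krt19 it was 0.47 ± 0.28 (edgeR adjusted p = 0.473) and, with the block, 0.49 (0.0024). Without the block 0 of 22 keratins passed in this comparison (edgeR, 1 at unadjusted p under 0.05, and 0 with DESeq2), where 0.137% of genes did (0.0393% higher, 0.0981% lower). With it 2 passed, where 7.39% of genes did (3.93% higher, 3.46% lower). The block in this comparison also pairs the EL libraries by number, although numbers were not taken to pair EL cells. The blocked values thus rest in part on that pairing.

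PT and EL cells were also set side by side alone. The experiments were separate, so stage and experiment cannot be told apart here. Of 20 keratins tested, 13 differed, 8 higher and 5 lower in PT cells, where 68.5% of all 14682 genes differed (33.8% higher, 34.7% lower). That share is near the share of all genes. Among basal and stress keratins, Krt15 was far higher in PT cells, at 74.8, 73.4 and 100.2 CPM, against 4.05, 4.03 and 4.06 CPM in EL cells (4.32 ± 0.14, edgeR adjusted p = 1.01e-06). The others of that class went the other way or did not differ. Krt16 was at 2.70, 5.52 and 4.45 CPM in PT cells, against 37.2, 23.3 and 30.1 CPM in EL cells (-2.87 ± 0.29), and it shared 37.6% of its 50-base windows with another gene. Krt5 was at 34.8, 60.8 and 112 CPM in PT cells, against 296, 355 and 404 CPM in EL cells (-2.38 ± 0.44). Krt17 was lower in PT cells too (-0.86 ± 0.20). Krt14, with 1649 ± 179.6 CPM in PT cells and 1582 ± 155 CPM in EL cells, had a difference of 0.03 ± 0.10 (edgeR adjusted p = 0.822).

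Among simple keratins, Krt19 was at 64.8, 121 and 94.8 CPM in PT cells, against 415, 402 and 394 CPM in EL cells (-2.14 ± 0.22), with no overlap. Krt18 was higher by 0.22 ± 0.07 in PT cells, a call lost without any of 3 single libraries (EL cells replicates 2 and 3, and PT cells replicate 2). Krt8 (-0.07 ± 0.08) and Krt7 (0.09 ± 0.11) did not pass. Low keratins that were higher in PT cells were Krt23 (2.76 ± 0.892 against 0.374 ± 0.180 CPM, 2.81 ± 0.38), Krt71 (7.63 ± 1.87 against 1.98 ± 0.365 CPM, 1.91 ± 0.21) and the hair follicle keratins Krt73 (1.76 ± 0.35) and Krt75 (1.14 ± 0.42). Krt9, known from the skin of palms and soles, was at 2.63, 3.05 and 1.55 CPM in PT cells, against 0.749, 0.913 and 0.896 CPM in EL cells (1.46 ± 0.28). Krt79 was higher in PT cells by 0.44 ± 0.10 and Krt90 was lower (-1.58 ± 0.51). Taken relative to the difference between the macrophages alone of the 2 experiments, Krt16 (0.82), Krt17 (0.14), Krt5 (-1.05) and Krt19 (-0.23) were no longer called and Krt18 reversed (-4.88). The Krt75 and Krt90 calls were lost with the block and without some single libraries. The 9 fibroblast markers summed to 189 to 335 CPM in PT cells and 589 to 1148 CPM in EL cells alone, with 8 of 9 lower in PT cells. The 5 lymphocyte markers summed to 0.462 to 1.55 CPM in PT cells and 15.0 to 20.5 CPM in EL cells, and the 5 endothelial markers to 1.05 to 1.17 and 2.85 to 4.66 CPM. The part of such cells in these differences was not tested.

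**Figure D5:**
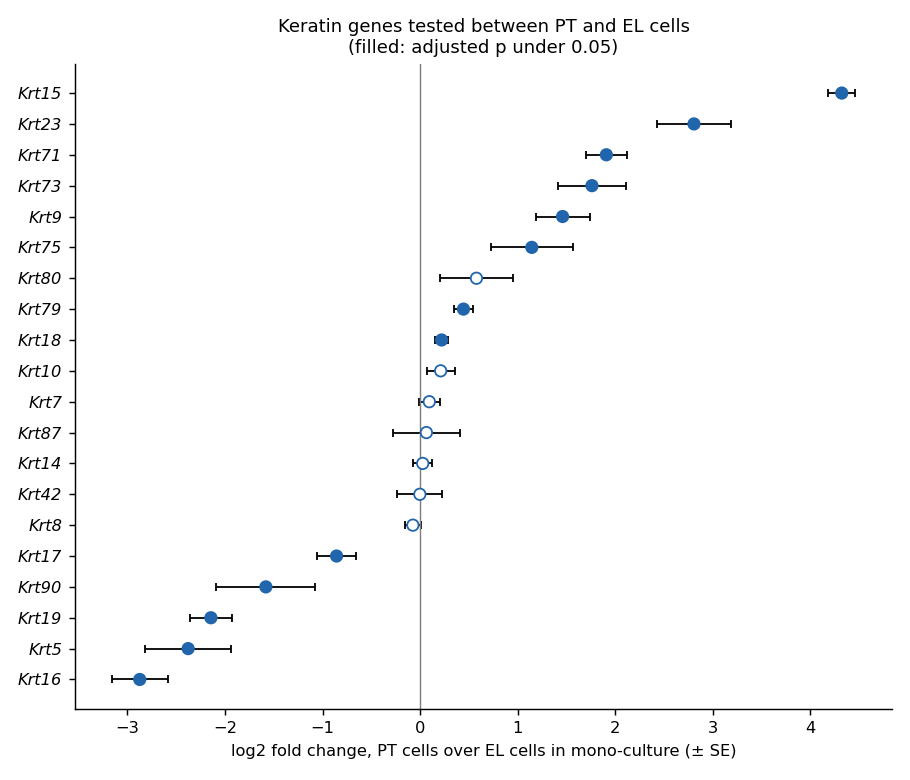
Log2 fold changes (± SE) of the 20 keratins tested between PT cells and EL cells cultured alone, PT over EL, with filled points for adjusted p under 0.05. Krt15 has the highest value, 4.32, Krt16 and Krt5 the lowest, -2.87 and -2.38, and Krt14, Krt8 and Krt7 lie near 0.

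Genes that keratin filaments depend on were read beside them. Of the 17 genes tested that link filaments to desmosomes and hemidesmosomes (plakins, plakophilins, desmosomal cadherins and others), 0 passed in EL cells with macrophages, with a median of -0.03, against 0.00 for all genes. The lowest p was that of Dsc3, a desmosomal cadherin, at -1.92 ± 0.36 (edgeR adjusted p = 0.0945), followed by Col17a1, the hemidesmosome collagen, at -0.70 ± 0.20. In PT cells 0 of 16 passed, with Dsg3 at -0.83 ± 0.26 (edgeR adjusted p = 0.164). Of 14 epithelial transcription factor genes known to act on keratin genes, 0 passed in either cell type. Trp63, a factor that basal cells need for Krt5 and Krt14 in mouse skin, was at 0.03 in EL cells and 0.20 ± 0.08 in PT cells with macrophages (edgeR adjusted p = 0.207). Among 11 other intermediate filament genes tested in EL cells, Nes, which encodes nestin, fell to 57.8 CPM with macrophages, against 81.7 CPM alone (-0.50 ± 0.06, edgeR adjusted p = 0.0223), and Ina was at 0.60 ± 0.18. In PT cells 0 of 10 passed, with Vim at 0.58 ± 0.22 (edgeR adjusted p = 0.223).

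Of 13 genes of squamous differentiation tested in EL cells, 1 rose and 1 fell, with a median of -0.38. Ly6d, a surface protein of stratified epithelia, rose by 1.11 ± 0.11 (edgeR adjusted p = 0.0154) and the galectin Lgals7 fell by 1.21 on the log2 scale. In PT cells 1 of 10 passed, again Ly6d, at 1.03 ± 0.07 (edgeR adjusted p = 0.00233). Between PT and EL cells alone, 9 of 13 squamous genes were lower and 1 higher in PT cells, and 7 of 17 linkers were lower and 2 higher, where 34.7% of all genes were lower and 33.8% higher. Over all 22 libraries the genes most like Krt79 in log2(CPM + 1) were Abhd6, Clta, Gbp3, Ear-ps5 and Osgep, with Pearson r of 0.967 to 0.951 among 10185 genes. Over the 12 mammary libraries those most like Krt5 were Fpgs, Tpm2, Bora, Dna2 and Sh2d5, with r of 0.968 to 0.9503. These libraries share cell type and experiment, so the values describe likeness only.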

How the data were processed

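Gene counts of 22 bulk RNA sequencing libraries were used as deposited, in 2 tables, 1 per experiment. The authors deposited whole-number counts per gene. Per the labels' protocols, RNA was purified with RNeasy Plus Universal kits, selected with oligo(dT) and made into NEBNext Ultra libraries. Per the submitters' processing notes, bcl2fastq 2.17 and mm10 were used. The aligner, the counter, the annotation and strand use were not found in those notes or the labels (not given in the sources used here). Reads of overlapping or near-identical genes could be split unknowably. Of the keratins, 10 overlap an exon of another gene and 12 share over 10% of their 50-base windows with one.

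Each comparison was fitted on its own groups with edgeR 4.0.16 in R 4.3.3 (filterByExpr, TMM, robust quasi-likelihood F test, two-sided), adjusted over all genes tested. Levels are CPM with TMM factors from 16393 genes. Levels per kilobase use GENCODE M21 principal transcripts. The scripts were tested on simulated data. Alternatives were RLE, no filter, DESeq2 1.42.0, no robust estimation, the replicate number as a block, no mitochondrial genes and Grip2, all groups in 1 fit, PT against EL relative to macrophages, and each library left out. Depth was 19.7 to 43.7 M counts, and intervals and floors of 3 counts cover counting error only.

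The members, the gene lists and the tests were chosen with earlier results of these data known. Named keratins are those called in a comparison or at 1 CPM or more in a group by the rule set with the design. Same-numbered libraries had residual correlations of 0.461, 0.350 and 0.468 in PT cells, so numbers were taken to pair them, and of 0.287, 0.227 and 0.0612 in EL cells, so they were not. The block in the difference between the mammary responses still paired EL libraries by number. The pairing of PT cells comes from the data, since the labels state none.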

Additional observations from a re-analysis of the deposited data

Results flagged for a closer look

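The response of macrophages to co-culture differed between the 2 experiments for 4 keratins, by the interaction term of edgeR's quasi-likelihood test (PT response minus EL response). Krt79 differed by 1.64 and Krt19 by 1.79, and Krt8 by -5.32 and Krt18 by -4.32. Krt79 was higher in 3 of 3 macrophage libraries with PT cells than in any alone and lower in both with EL cells. The Krt8 and Krt18 estimates depend on the few counts of macrophages alone in the early lesion experiment, which were 3 for Krt8 and 4 for Krt18.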

How the results depend on the processing

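Of 74 single keratin values, 41 kept their direction and their side of the threshold under every alternative run, and of 43 called values 30 did. In EL cells with macrophages 1 keratin passed with DESeq2 and 0 to 3 did with single libraries left out. In PT cells with macrophages 6 passed with the replicate block, and 2 did in the difference between the mammary responses, where the block also pairs EL libraries. The block changed the number of called keratins by over 1.5 times in no other comparison. Genes called in all were 76 in EL cells (485 with the block, 506 with DESeq2, 174 with no filter), 225 in PT cells (2841, 768 and 466) and 21 for the difference between the responses (1129, 331 and 35). The cause was not tested.

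Relative to macrophages, the PT over EL values of Krt16 (0.82), Krt17 (0.14), Krt18 (-4.88) and Krt7 (-1.85) reversed, and those of Krt16 and Krt17 were no longer called. The same setting ended the calls of Krt5 (-1.05), Krt19 (-0.23), Krt23 (2.84), Krt71 (1.94), Krt73 (4.09), Krt75 (6.39), Krt9 (1.49) and Krt90 (-1.54), and called Krt8 (-6.38), Krt14 (2.22) and Krt7. Krt23, Krt71, Krt9 and Krt90 had no count in macrophages alone of either experiment. Their macrophage difference cannot be estimated, so the setting does not weigh their calls. Their estimates were close to those of the main fit (2.81, 1.91, 1.46 and -1.58). That setting subtracts the difference between the macrophages alone of the 2 experiments, which held Krt18 at 1.81 CPM in the primary tumor and 0.0480 CPM in the early lesion experiment. With single libraries left out, the values ranged over 0 for Krt5 in PT cells with macrophages (-0.00657 to 1.00), for Krt7 there (-0.152 to 0.0597) and, for PT over EL, for Krt14 (-0.0336 to 0.121), Krt7 (-0.0283 to 0.188) and Krt8 (-0.134 to 0.0158), none of which were called.

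Without a filter on low counts, Krt17 in macrophages with EL cells passed (1.10, adjusted p = 0.0146).

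Low counts limit the macrophage values of the primary tumor experiment, where keratins took 0.00204 to 0.00784% of the counts and 6 keratins were tested.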
